A study of Triticum aestivum with 6 samples.

Results

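The comparison set aleurone of developing bread wheat grain (Triticum aestivum, cultivar Banks) at 14 days post anthesis (DPA) against aleurone at 9 DPA. It used 2 of the 6 RNA-seq libraries of the study, 1 per stage, and the choice rested on the tissue and stage given in the labels and on no measured value. The other libraries were aleurone at 6 DPA and starchy endosperm at 6, 9 and 14 DPA, all of the same cultivar with no treatment named. Each library came from microdissected tissue pooled from at least 5 seeds, taken from 3 spikes of 3 plants, so a group was a single pool. No difference between the stages has a replicate check, and no p-value is given.

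The aleurone is the outer layer of the cereal endosperm. It forms at the surface of the young endosperm after cellularisation, takes up lipid, protein and minerals, and stays alive in the dry grain, where it later secretes enzymes that break down the reserves. The starchy endosperm inside it fills with starch and storage protein and dies as the grain matures. In the interval studied the wheat grain passes from early endosperm differentiation into grain filling.

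The files held reads for 221925 transcript sequences, identified by assembled-contig names that begin with TC (93508) or by names of single expressed sequence tags (128417). The identifiers carried no gene names, none (0) matched the wheat reference table, and neither functions nor positions can be attached to them. The tissue labels could therefore not be set against marker genes, and only 2 sequences that rose and 2 that fell are named. Several sequences can stem from 1 gene, and the numbers below therefore count sequences rather than genes.

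The 14 DPA aleurone library held 37911327 reads and the 9 DPA library 4549034, 8.33 times fewer. Both starchy endosperm and aleurone were shallow at 9 DPA, so depth, and any other difference in how the stages were sequenced, cannot be told apart from stage. To put the libraries on an equal footing, the 14 DPA reads were drawn down at random to the total of the 9 DPA library. Ratios were then scaled with TMM factors, which match the bulk of the sequences between libraries. A sequence was considered where the higher library had at least 50 reads, and counts under 3 were set at 3 in ratios. Below, "rose" and "fell" mean a scaled ratio of at least 4 between these 2 libraries.

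Many aleurone transcripts differed widely in level between 9 and 14 DPA. Of 23301 sequences considered, 3976 (17.1%) rose and 3621 (15.5%) fell, 32.6% in all. With no minimum the share was 13.8% of the 126485 sequences with at least 1 read. As counts under 3 were set at 3, sequences with few reads cannot reach a ratio of 4 there. With a minimum of 20 reads it was 32.6% of 40468, and with 100 reads 35.4% of 13452. At full depth 8795 rose and 3919 fell, as the deeper library reaches 50 reads more readily. In pooled tissue, fewer cells of a type and less RNA per cell cannot be told apart. The changes ran to very large ratios in both directions, with 1707 sequences at least 16-fold higher at 14 DPA and 1522 at least 16-fold higher at 9 DPA. At 64-fold or more, 546 had risen and 377 had fallen. The median log2 ratio of 14 to 9 DPA over the sequences considered was -0.03, with 10% of them below -2.97 and 10% above 3.14. Just inside the threshold, 600 sequences rose and 537 fell between 4-fold and 5-fold, while just outside it 967 and 1014 were between 3-fold and 4-fold apart. Where the exact 95% interval of the ratio, which covers counting error only, was required to lie wholly beyond 4-fold, 2875 rose and 2588 fell. With library totals in place of TMM all log2 ratios of 14 to 9 DPA moved by -0.13 and the balance turned, with 3721 up and 3884 down.

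**Figure D1:**
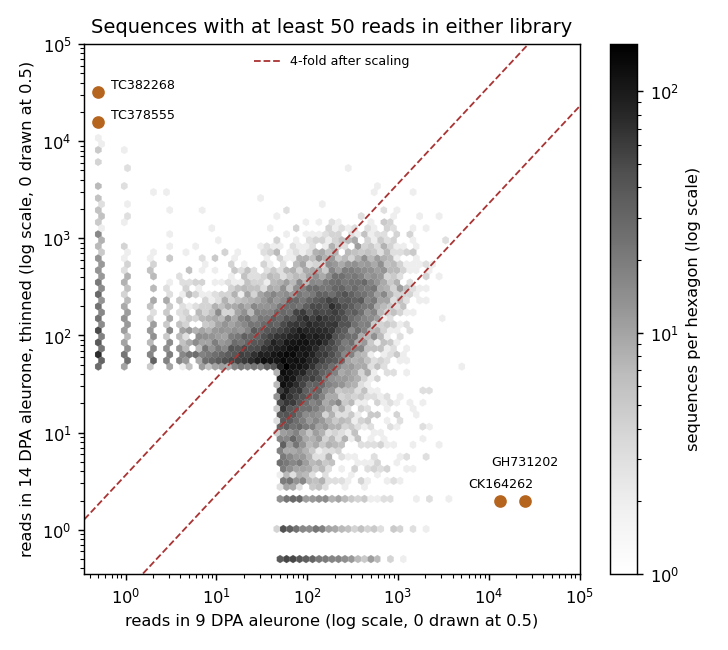
Reads per sequence in 9 DPA aleurone (x axis, log scale) and in 14 DPA aleurone thinned to the same depth (y axis, log scale) for the 23301 sequences with at least 50 reads in either library, as hexagons shaded by the number of sequences. Dashed lines mark 4-fold after scaling, the 4 named sequences are orange points, and columns of sequences at 0 or few reads stand along both axes.

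The most abundant transcripts changed as well. Only 2 sequences were among the 100 most abundant of both libraries, 2% of each list. By comparison, the 6 and 9 DPA aleurone lists shared 56% and the 9 and 14 DPA starchy endosperm lists shared 55%. The 6 DPA list shared 8% with 14 DPA in aleurone, and in starchy endosperm it shared 29% with 9 DPA and 13% with 14 DPA. Of the top 100 of 9 DPA, 85 were at least 4-fold lower at 14 DPA, and of the top 100 of 14 DPA, 90 were at least 4-fold lower at 9 DPA, lists that were chosen for being high at the respective stage. A list chosen on neither library also lost its place. The 100 most abundant sequences of 6 DPA aleurone held 8.76% of reads in that library, 9.01% in the 9 DPA and 1.67% in the 14 DPA aleurone library.

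Short sequences fell more often than they rose. Below 500 bases 28.3% fell and 18.3% rose, whereas from 1500 bases upwards 8.56% fell and 11.5% rose. Sequences named as single tags fell more often (25.6%) than contigs did (13.7%), and they also rose more often (19.3% against 16.7%). Whether length, or the poly(A)-primed amplification, had a part in these shares was not tested.

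The sequences that rose took over much of the library. Together the 3976 held 37.2% of reads in 14 DPA aleurone, against 2.28% at 9 DPA, values that follow from their choice. Few of them made up most of this share, as the 546 that rose at least 64-fold held 19.1% of the 14 DPA reads. At 6 DPA, in an aleurone library that took no part in the choice, the 3976 held 5.73%. Their median level there was 3.87 RPM (reads scaled to a library total of 1000000), against 2.42 at 9 DPA and 29.9 at 14 DPA. In starchy endosperm, which was not used in the choice either, the same sequences took 11.1%, 20.2% and 45.9% of the reads at the successive stages. All sequences considered took 74.3%, 76.4% and 82.1% there. The median level in starchy endosperm of those that rose was 7.72, 5.36 and 7.67 RPM at these stages, without TMM scaling. Over all sequences considered it was 12.9, 11.2 and 7.44 RPM, so the typical sequence that rose was below that median at 6 and 9 DPA. With scaling at 4104682 reads, 1816 sequences that rose in aleurone could be considered in both tissues. The median log2 change of these 1816 in starchy endosperm from 9 to 14 DPA was 1.44, against 0.0 over all sequences considered in both tissues. All shares of reads given here have exact 95% binomial intervals within 0.0483 percentage points either way, for counting error only.

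The sequences that fell stood at 6 DPA in aleurone at about the level of the other sequences, and were lower in starchy endosperm. The 3621 held 30.5% of reads in 9 DPA aleurone and 1.92% at 14 DPA, again by their choice. In the 6 DPA aleurone library they held 21.6%. There 3449 of the 3621 had at least 50 reads (95.2%), as did 92.4% of all sequences considered. In starchy endosperm they held 6.26%, 3.57% and 1.84% at the successive stages. Their median aleurone level was 20.6 RPM at 6 DPA, 29.5 at 9 DPA and 2.19 at 14 DPA, and in 9 DPA starchy endosperm it was 1.71 RPM. Over all sequences considered the medians were 18.2 RPM in 6 DPA aleurone and 11.2 RPM in 9 DPA starchy endosperm. The 15704 sequences less than 4-fold apart took up 51.3% of the 9 DPA and 46.1% of the 14 DPA aleurone library.

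**Figure D2:**
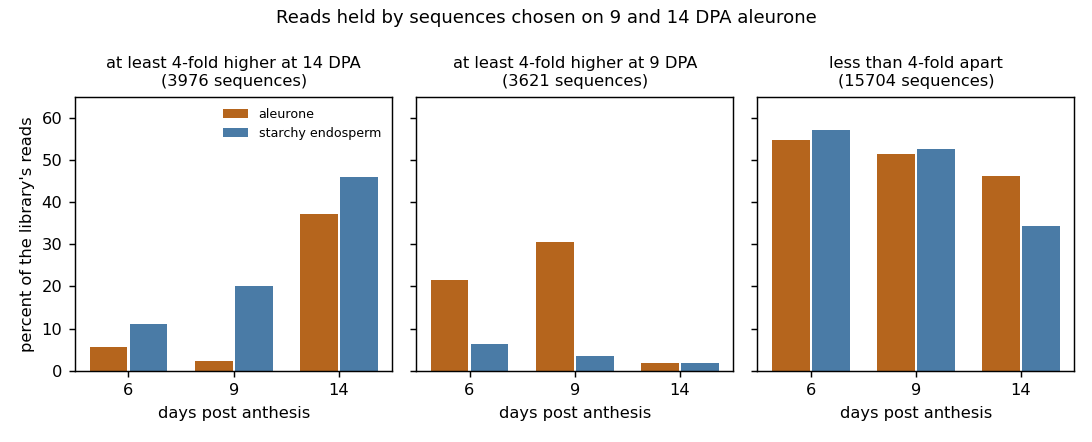
Percent of each library's reads (y axis) at 6, 9 and 14 DPA (x axis) held by the sequences that rose, that fell or that stayed within 4-fold between 9 and 14 DPA aleurone. Bars are single libraries with no replicate error. The sequences that rose hold 45.9% of 14 DPA starchy endosperm reads, and those that fell hold 21.6% of 6 DPA aleurone reads, neither of which was used to choose them.

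Some transcripts went from no reads to at least 50 at equal depth, and others the reverse. Among the sequences that rose, 560 had no read at 9 DPA, which by the limit of 3 reads allows up to 0.6595 RPM for each. These 560 held 10.8% of the reads in 14 DPA aleurone, at a median of 32.7 RPM (16.6 RPM over all sequences considered). In the deeper 6 DPA aleurone library, 287 of them had no read either and 434 had at most 3. In 14 DPA starchy endosperm 20 had no read and 313 had at least 50 (55.9%, against 82.4% of all sequences considered), and as a group they held 1.95% of reads there. Among the sequences that fell, 385 had no read in the thinned 14 DPA library, and 96 had none among all 37911327 reads of that library, which allows up to 0.07913 RPM for each. The 385 held 1.61% of the reads in 9 DPA aleurone, at a median of 21.1 RPM (17.6 RPM over all sequences considered).

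The 2 sequences with the largest rise, among those with at least 50% of their reads counted as unique, came from no reads in aleurone at 6 and 9 DPA. TC382268 (1301 bases) had 0, 0 and 267347 reads in aleurone at 6, 9 and 14 DPA, and 0, 10 and 222 in starchy endosperm. Only the 14 DPA aleurone library was high, where the sequence ranked 4 by reads and took 0.705% of them (5420 RPKM, the authors' value scaled by length and library total). At equal depth it had 31910 reads at 14 DPA, 11650-fold more than at 9 DPA with the count of 0 set at 3, with a lower exact 95% limit of 9474-fold. TC378555 (1205 bases) had 0, 0 and 130257 reads in aleurone and 2, 2 and 101 in starchy endosperm. It ranked 6 in 14 DPA aleurone at 2851 RPKM, 5683-fold above 9 DPA at equal depth on the same terms, with a lower limit of 4621-fold. In 14 DPA starchy endosperm the RPKM of the pair was 4.55 and 2.235, far below the aleurone level of that stage. On unique reads, again with 0 set at 3, the ratios were 5438-fold and 3216-fold.

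The 2 sequences with the largest fall were high in aleurone at both early stages. GH731202 (666 bases) had 24943, 25080 and 24 reads in aleurone at 6, 9 and 14 DPA, which is 1379, 8278 and 0.951 RPKM. It ranked 2 in the 9 DPA library. In starchy endosperm it had 136, 5 and 0 reads. At full depth its 9 DPA level was 7951-fold above that at 14 DPA (exact 95% interval 5343 to 12410). CK164262 (807 bases) had 105342, 13448 and 48 reads in aleurone, or 4808, 3663 and 1.569 RPKM, and 496, 3 and 0 reads in starchy endosperm. The fall was 2132-fold at full depth (interval 1607 to 2893) and 4093-fold in the thinned library, where 2 reads were left and the count was set at 3. On unique reads at equal depth the ratios of GH731202 and CK164262 were 4246-fold and 2900-fold, with the thinned 14 DPA counts set at 3. At full depth 14 and 9 unique reads were left at 14 DPA, against 12880 and 8799 at 9 DPA. Near-identical sequences can share reads with each of these, and 51.4% and 65.4% of the 9 DPA reads of GH731202 and CK164262 were unique.

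**Figure D3:**
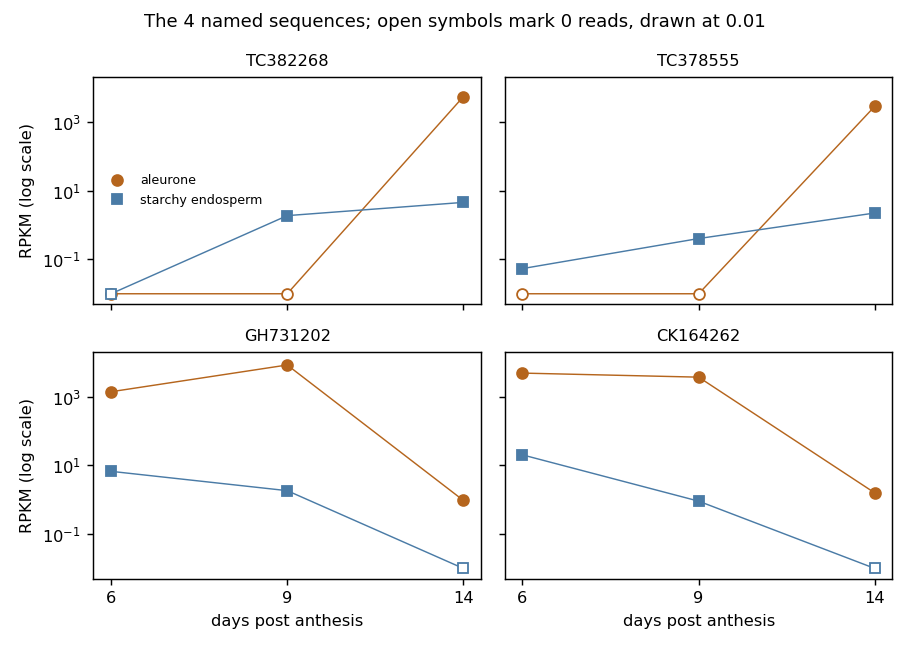
RPKM (y axis, log scale) of the 4 named sequences at 6, 9 and 14 DPA (x axis) in aleurone and starchy endosperm, 1 library per point, with open symbols for libraries with 0 reads. TC382268 and TC378555 reach 5420 and 2851 RPKM in 14 DPA aleurone alone, while GH731202 and CK164262 are above 1000 RPKM in aleurone at 6 and 9 DPA and at 0.951 and 1.569 at 14 DPA.

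To ask which kind of transcript changed without using the 9 and 14 DPA aleurone libraries for the choice, sequences were grouped by their ratio between the tissues at 6 DPA. The 8517 sequences that favoured aleurone at 6 DPA, by a ratio of 4 or more, accounted for 27.7% of the aleurone library of that stage, 31.0% of the 9 DPA and 7.40% of the 14 DPA one. After scaling, their summed level fell 3.82-fold from 9 to 14 DPA. Singly, by scaled levels at full depth, 6561 of the 8517 were higher at 9 DPA and 1929 were higher at 14 DPA. Of all 56786 sequences with at least 50 reads in either 6 DPA library, 28344 were higher at 9 DPA and 28136 at 14 DPA. By the 4-fold rule 1955 of the 8517 (23.0%) fell and 191 (2.24%) rose, against 6.13% and 5.53% of the 56786. Of the rest of the 8517, 1526 were less than 4-fold apart and 4845 stayed under 50 reads.

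Sequences of the opposite preference moved the other way. The 6797 that favoured starchy endosperm at 6 DPA by the same ratio accounted for 2.48%, 3.36% and 14.7% of the aleurone libraries at the successive stages. Their summed scaled level in aleurone rose 4.80-fold from 9 to 14 DPA. At full depth 4585 of the 6797 were higher at 14 DPA and 1947 higher at 9 DPA. Many had few reads, with a median of 1.1 RPM in 9 DPA aleurone. No read was found for 1146 in 9 DPA aleurone and for 553 in the deeper 14 DPA library. A sequence with 0 reads at 9 DPA counts as higher at 14 DPA with 1 read there. By the 4-fold rule, at equal depth, 1067 of the 6797 (15.7%) rose and 86 (1.27%) fell, with 612 less than 4-fold apart and 5032 under 50 reads. In starchy endosperm this group held 30.2%, 32.9% and 49.3% of reads at the 3 stages. The 26536 sequences within 2-fold between the tissues at 6 DPA had a like share at both stages, 40.9% of the 9 DPA and 40.5% of the 14 DPA aleurone library.

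**Figure D4:**
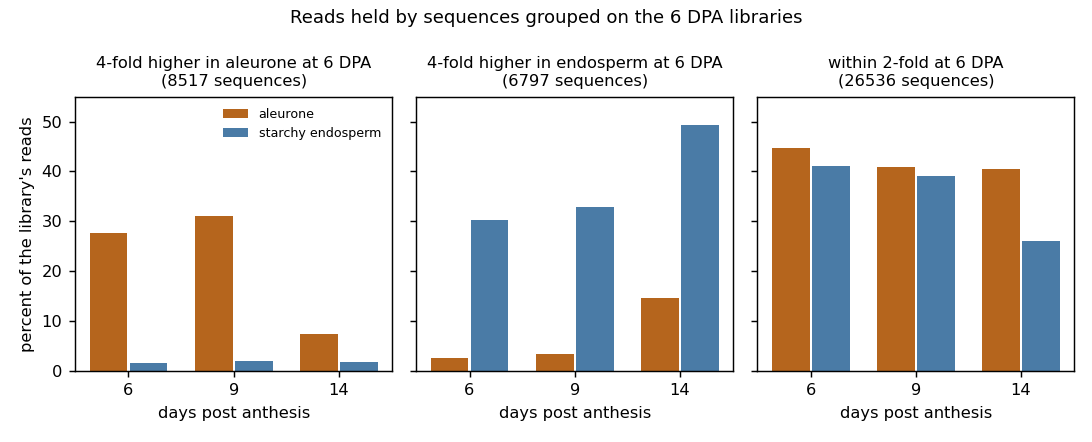
Percent of each library's reads (y axis) at 6, 9 and 14 DPA (x axis) held by sequences grouped on the 6 DPA libraries alone. In aleurone the first group goes from 31.0% at 9 DPA to 7.40% at 14 DPA and the second from 3.36% to 14.7%, with 1 library per bar.

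The most abundant starchy endosperm sequences were also read in aleurone at a higher level at 14 than at 9 DPA. The 100 most abundant sequences of 14 DPA starchy endosperm held 32.3% of its reads and 12.9% of 9 DPA starchy endosperm reads. In aleurone they held 1.75% of reads at 14 DPA and 0.158% at 9 DPA. In 14 DPA aleurone these 100 stood at a median of 4.61% of their starchy endosperm level (quartiles 3.37% and 6.59%, range 0.36% to 91.4%), and 5 of them were above 10%. The corresponding list at 9 DPA stood at a median of 1.33% (quartiles 0.578% and 3.44%), with 14 above 10%. At 6 DPA the median was 3.99% (quartiles 1.23% and 29.5%), with 39 above 10%. Each stage has its own list, so these medians do not follow the same sequences. The 14 DPA list held 0.0631% of 6 DPA aleurone reads. The 9 DPA list went from 0.564% to 2.06% of aleurone reads from 9 to 14 DPA, and from 16.3% to 24.7% of starchy endosperm reads. Of the 3976 sequences that rose, 213 were at or below 10% of their 14 DPA starchy endosperm level, and these held 1.84% of 14 DPA aleurone reads. The other 3763 held 35.4%, against 2.17% at 9 DPA. The 10% limit uses the 14 DPA aleurone level itself, and whether starchy endosperm RNA had a part in the rise was not tested. In the group higher in starchy endosperm at 6 DPA, the 5490 sequences above the same limit went from 3.01% to 12.8% of aleurone reads. Of the sequences that rose, 3329 had a higher RPM in aleurone than in starchy endosperm at 14 DPA (83.7%), as did 80.4% of all those considered. The rule that chose them used the same 14 DPA aleurone library. RPM also leaves out the TMM factors, 1.053 in 14 DPA aleurone and 0.6525 in 14 DPA starchy endosperm. Scaling by them would raise starchy endosperm levels relative to aleurone.

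The change of aleurone from 9 to 14 DPA was wider than that of aleurone from 6 to 9 DPA, with all libraries thinned to 4104682 reads. The interval from 9 to 14 DPA is also longer than that from 6 to 9 DPA. At that depth 17.2% of 21657 sequences rose and 15.6% fell in aleurone from 9 to 14 DPA. From 6 to 9 DPA, a comparison that shares the 9 DPA library, 3.46% of 19964 rose and 5.68% fell. In starchy endosperm from 9 to 14 DPA 12.6% of 16407 rose and 8.26% fell. Changes of at least 16-fold made up 14.1%, 1.48% and 4.06% of the sequences considered in the 3 comparisons. The median absolute log2 change was 1.24, 0.64 and 0.98. With 1 library per side, the difference between these spreads was not tested.

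**Figure D5:**
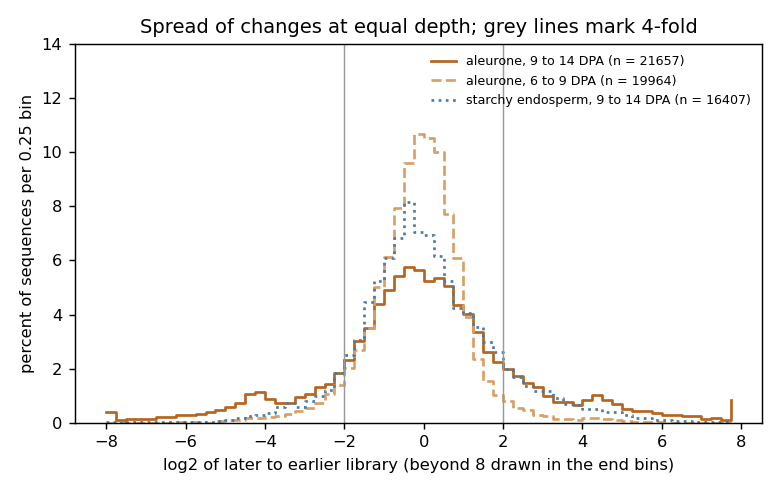
Distribution of the log2 ratio of the later to the earlier library (x axis) as percent of sequences per bin (y axis) for aleurone from 9 to 14 DPA, aleurone from 6 to 9 DPA and starchy endosperm from 9 to 14 DPA, all at 4104682 reads. The aleurone curve for 9 to 14 DPA is the flattest, with 14.1% of its sequences at least 16-fold apart against 1.48% and 4.06%.

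Many sequences that rose in aleurone also rose in starchy endosperm over the same interval, a comparison that shares no library with it. At 4104682 reads, 12131 sequences could be considered in both tissues, of which 10.6% rose and 5.65% fell in starchy endosperm. Of the 1816 that rose in aleurone, 673 (37.1%) rose in starchy endosperm and 41 (2.26%) fell there. In the full libraries the 673 went from 0.389% to 10.2% of aleurone reads and from 4.65% to 26.7% of starchy endosperm reads. Both increases follow from their choice. Of the 655 that fell in aleurone, 174 (26.6%) also fell in starchy endosperm and 67 (10.2%) rose there. Of those 1816 and 655 sequences, most (1102 and 414) were less than 4-fold apart in starchy endosperm. In aleurone 3715 rose and 3385 fell at that depth, and the others stayed under 50 reads in starchy endosperm at 9 and 14 DPA. Across the 12131 sequences the correlation between the log2 changes of both tissues was Pearson r = 0.45 and Spearman rho = 0.38, a description across sequences that share reads and library scaling.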

How the data were processed

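Poly(A) RNA from microdissected tissue underwent linear amplification, removal of the tail with a restriction enzyme and 15 PCR cycles, and was sequenced on a Genome Analyzer IIx, per the labels' protocols. The aligner and the release of the sequences are not given in those sources or the files. The authors deposited, per sequence, counts of total and unique reads and RPKM, per the file headers. RPKM recomputed from total counts and lengths matched the deposited values within 0.0005. The authors' transformed score in both 6 DPA files was not used. How reads matching several sequences were shared out is not given, so values of near-identical sequences are uncertain. PCR copies were not told apart.

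Total counts were analysed. The 14 DPA aleurone counts were thinned without replacement (numpy 2.4.6, seed 1). TMM factors came from edgeR 4.0.16 (R 4.3.3) over all 6 libraries, from the 75040 sequences reaching 10 reads in 3 or more libraries. Intervals of ratios and shares are exact binomial (scipy 1.17.1). The calling step was checked on simulated counts. The named sequences are the 2 per direction with the largest equal-depth ratio among those changed at least 4-fold with at least 50% unique reads in the higher library. The comparison and its groupings were chosen with earlier results of these data known. Alternatives in scaling, reads counted, minimum, depth and sequences used are reported at the end. Gene and marker lists could not be matched to identifiers and gave no result.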

Additional observations from a re-analysis of the deposited data

Results flagged for a closer look

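Between 9 and 14 DPA 41 sequences rose at least 4-fold in aleurone and fell at least 4-fold in starchy endosperm, and 67 fell in aleurone and rose in starchy endosperm, among 12131 considered in both tissues at 4104682 reads. They were picked out because the tissues moved in opposite directions, and with 1 library per tissue and stage the difference was not tested. In the full libraries, and by their choice, the 41 went from 0.0541% to 1.02% of reads in aleurone and from 0.282% to 0.0198% in starchy endosperm. On the same terms the 67 went from 0.996% to 0.0566% in aleurone and from 0.105% to 0.506% in starchy endosperm. More sequences moved the same way in both tissues, 673 up and 174 down.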

How the results depend on the processing

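The equal-depth counts of sequences that rose (3976) and fell (3621) stayed within 1.5 times under library totals, DESeq2 size factors, 5 other thinning seeds (3941 to 3980 and 3606 to 3654), removal of the most abundant sequences and contigs alone. The low-count value of 1 or 5 reads cannot change them, as 50 reads are at least 10 times 5. Unique reads gave 2377 and 2214 (35.8% apart), a minimum of 20 reads 6760 and 6436, of 100 reads 2503 and 2262 (35.4%) and no minimum 9292 and 8101 (13.8%). Full depth gave 8795 that rose against 3919 that fell (23.3%), with 69.2% of the changed sequences rising in place of 52.3%, since a deeper library reaches 50 reads at lower levels. The share apart was 23.4% with the exact limit, 30.4% for contigs alone and 31.7% without sequences at or below 10% of their starchy endosperm level. That alternative, the common depth of 4104682 reads and the grouping on 6 DPA reads were chosen after seeing the data. The 100 most abundant sequences held 11.1% of 9 DPA and 15.2% of thinned 14 DPA reads, 11.6% and 12.6% on unique reads, and 12.2% and 16.6% among contigs. Across sequences the log2 levels of the libraries correlated at Pearson r = -0.04 (Spearman rho 0.115). A minimum on the higher of the libraries itself lowers this value: r was 0.187 at 20 reads, -0.009 with a pseudocount of 3 reads, -0.221 on unique reads, and 0.567 over the 56786 sequences chosen by their 6 DPA reads. Depth limits the 9 DPA library most, where 3 reads are 0.6595 RPM. No paired analysis was possible because each group is a single library and the comparison comes from no test.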
